A study of Mus musculus with 10 samples.

Results

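Ion channels that respond to temperature or to mechanical force were followed in lower incisor dental mesenchyme of mice, the pulp tissue of a tooth that grows throughout life. The 10 genes, Trpm8, Trpc5, Trpa1, Trpv1, Trpv4, Trpm7, Trpc1, Piezo1, Piezo2 and Kcnk2, were listed by name. For each of them the array probe sets assigned to that symbol alone were taken, and the probe set with the highest mean over all arrays stood for the gene. All 10 were found among 18193 genes measured, with 15 probe sets in all, of which 4 belong to Trpm7 and 2 each to Trpc1 and Piezo2. The denervated group holds 5 arrays of total RNA from incisors of wild-type C57BL/6J mice at postnatal day 60, taken 2 weeks after resection, on that side, of the inferior alveolar nerve (IAN), which supplies sensation to the lower teeth. The contralateral group holds 5 arrays from the other lower incisor of such mice, so its animals were operated on as well, and there is no sham-operated group: loss of the nerve and the operation itself cannot be told apart. The sex of the mice is given as not determined. Arrays with the same number are treated as a pair from 1 mouse, on the basis given with the processing. Values are log2 intensities, on which a difference of 1 is a doubling, and all differences are denervated minus contralateral.

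A tooth feels cold, heat and pressure through sensory endings in the pulp and through odontoblasts, the dentin-forming cells that line the pulp and send processes into the dentinal tubules. TRP channels are cation channels opened by temperature, chemicals or cell signals, PIEZO channels are cation channels opened by membrane tension, and KCNK2 (TREK-1) is a tandem-pore potassium channel that stretch and warmth open and that holds the membrane near rest. The cell bodies of the nerve endings lie in the trigeminal ganglion, outside the sampled tissue, so a sensory neuron can add to the sample only the RNA held in its endings.

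Array medians over all probe sets lay between 1.48 and 1.54 and the highest values between 12.9 and 13.2. No detection calls come with the values, so a mean of at least 4 is called clearly measured here, which held for 43.5% of genes, and a mean below 2 is called the low end, which held for 40.7%. Measured markers of odontoblasts were all clearly measured (8 of 8), and so were markers of the enamel epithelium (10 of 10), a tissue outside the mesenchyme. Only 2 of 11 sensory axon markers and 2 of 7 Schwann cell markers were, and 0 of 3 red cell and 0 of 5 skeletal muscle markers. Denervated array 3 had a low mean of epithelial markers, 6.36 where the other 9 arrays lay between 8.79 and 9.28. Enam read 0.82 there, while Mmp20 (10.41), Klk4 (4.81) and Epcam (6.79) lay within the range of the other arrays. Denervated array 2 had a high mean of Schwann cell markers (4.83, others at most 3.54) and a low mean of odontoblast markers (9.19, others at least 9.65). It was also highest in smooth muscle and pericyte markers (7.30, others at most 6.75). Because these arrays stand apart, the difference without both is given for channel genes and for related genes where it moved by over 1.5 times.

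Of the channel genes, Kcnk2, Trpm7, Piezo1 and Trpv4 were clearly measured in both groups. Trpm8, Trpc5, Trpa1, Trpv1 and Trpc1 lay at the low end, and Piezo2 just above it. In limma's test with Benjamini-Hochberg adjustment over 18193 genes, 0 of the 10 channel genes passed an adjusted p of 0.05, as did 0% of all genes, and the smallest adjusted p among the 10 was 0.790. At an unadjusted p under 0.05 there was 1 of 10, Kcnk2, against 6.21% of all genes; it was lower, as 2.11% of all genes were at that p, and 4.1% were higher. With the mouse as a block there were 2 of 10, Kcnk2 and Trpv4, against 9.92% of all genes, and again 0 of 10 and 0% after adjustment. In the representative probe sets the groups of 5 values overlapped for all 10 (they did not for 0.951% of all genes), and in none did all 5 pairs go in 1 direction (10.4% of all genes, 6.58% higher and 3.8% lower). The differences below are therefore given as values and not as changes.

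**Figure D1:**
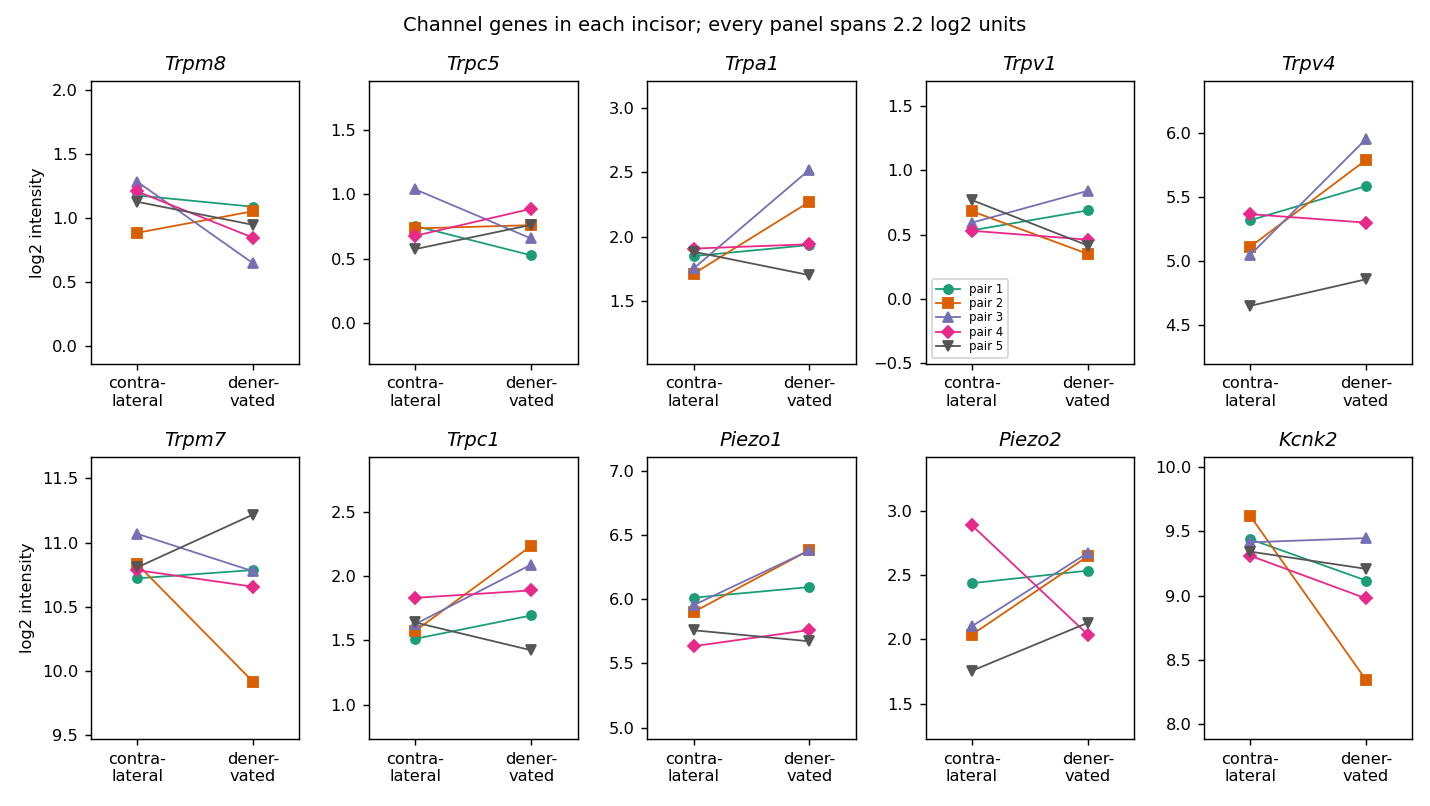
Log2 intensity of each of the 10 channel genes in the contralateral (left) and denervated (right) incisor, with a line joining arrays of the same number; every panel has its own range of 2.2 log2 units. Kcnk2 and Trpm7 were lowest in denervated array 2 (8.34 and 9.92), while Trpv4 and Piezo1 were highest in denervated arrays 2 and 3.

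Promoters of 4 of these genes are shown because the list holds clearly measured genes and genes at the low end side by side, and their start regions differ in CG dinucleotides, the sites of DNA methylation. RefSeq start regions (build GRCm38.p6, 250 bases before to 50 after the start) were read for 8 of the 10 genes. They made 11 regions, 4 of them of Kcnk2. No region of Trpa1 or Piezo2 is reported here. The regions shown are chr2:126876212-126876511 (minus strand) for Trpm7, chr8:122551280-122551579 (minus strand) for Piezo1, chr1:88306485-88306784 (plus strand) for Trpm8 and chr11:73233899-73234198 (plus strand) for Trpv1, 5′ to 3′ in the direction of transcription, with each CG in capitals.
Trpm7: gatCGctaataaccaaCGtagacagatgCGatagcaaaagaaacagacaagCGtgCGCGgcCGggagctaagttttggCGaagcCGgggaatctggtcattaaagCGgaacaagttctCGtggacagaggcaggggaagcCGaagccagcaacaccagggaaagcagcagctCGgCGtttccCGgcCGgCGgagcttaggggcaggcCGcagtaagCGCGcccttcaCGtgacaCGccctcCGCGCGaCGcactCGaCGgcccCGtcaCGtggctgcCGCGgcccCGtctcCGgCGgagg
Piezo1: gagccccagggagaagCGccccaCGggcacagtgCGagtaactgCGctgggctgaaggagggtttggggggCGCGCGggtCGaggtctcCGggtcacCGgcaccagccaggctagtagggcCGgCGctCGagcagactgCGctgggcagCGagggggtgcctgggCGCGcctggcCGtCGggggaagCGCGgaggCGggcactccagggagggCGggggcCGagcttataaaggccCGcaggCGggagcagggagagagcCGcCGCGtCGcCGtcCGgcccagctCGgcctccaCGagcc
Trpm8: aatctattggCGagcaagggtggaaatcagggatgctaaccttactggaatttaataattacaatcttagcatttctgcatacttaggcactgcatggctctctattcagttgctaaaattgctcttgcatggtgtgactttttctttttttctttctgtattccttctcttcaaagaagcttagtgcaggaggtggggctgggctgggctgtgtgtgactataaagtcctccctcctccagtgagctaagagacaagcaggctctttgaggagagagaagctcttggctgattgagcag
Trpv1: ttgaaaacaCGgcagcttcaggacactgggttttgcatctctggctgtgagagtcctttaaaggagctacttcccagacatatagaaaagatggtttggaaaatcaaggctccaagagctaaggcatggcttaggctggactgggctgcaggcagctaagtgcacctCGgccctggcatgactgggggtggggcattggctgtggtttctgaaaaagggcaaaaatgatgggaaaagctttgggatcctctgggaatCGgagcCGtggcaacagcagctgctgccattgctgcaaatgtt
Trpm7 had 35 CG dinucleotides, a count reached by 6.96% of the 32841 start regions, which had a median of 7. Piezo1 had 34 (reached by 7.73%) and Trpv4 30 (11.7%). At the low end of the intensity scale Trpm8 had 1 (94.6%) and Trpv1 4 (68.6%). Trpc5 and Trpc1, also at the low end, were above the median, with 9 (45.8%) and 22 (23.1%). The regions shown are those with the highest counts among clearly measured genes and the lowest among genes at the low end, and do not stand for the list. The 4 start regions of Kcnk2 had 6, 3, 33 and 33, and which start is used in this tissue cannot be read from the array. The motif CACGTG, which reads the same on both strands, occurred 2 times in Trpm7 and in 0 of the other 10 regions, and in 7.15% of all regions. TATAAA, searched on both strands, occurred in Trpm8 and Piezo1 and in 13.6% of all regions, and GGGCGG, searched on both strands, in Trpv4, Trpc1, Piezo1 and 1 region of Kcnk2 and in 35.7% of all regions. These are matches of letters and no evidence of binding, and intensities of different probe sets do not rank the transcripts.

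Kcnk2, the stretch-opened potassium channel, was lower on average in the denervated incisors. Its log2 values were 9.12, 8.34, 9.45, 8.98 and 9.21 in denervated arrays 1 to 5 and 9.44, 9.62, 9.42, 9.31 and 9.34 in contralateral arrays 1 to 5. Denervated array 2 was the lowest of all 10, 4 of 5 denervated values lay below every contralateral value, and denervated array 3 lay inside the contralateral range. The means were 9.02 ± 0.41 against 9.43 ± 0.12 (SD, n = 5), a difference of -0.41 ± 0.17 (SE; 95% interval -0.78 to -0.03; limma adjusted p = 0.790, unadjusted p = 0.0373). As a ratio this is 0.755 (0.581 to 0.98). Over all assignments of the 10 arrays to 2 groups of 5, the exact permutation test (two-sided) gave p = 0.0476, unadjusted. With the pairing kept, the exact sign-flip permutation of the 5 paired differences (two-sided) gave p = 0.125; 5 pairs cannot go below 0.0625. The paired differences in mice 1 to 5 were -0.32, -1.28, 0.03, -0.33 and -0.13, lower in 4 of 5. Without denervated array 2 the difference was -0.24, and without denervated arrays 2 and 3 it was -0.32.

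Kcnk2 varied over the arrays with the odontoblast markers. Their mean log2 value, over Dspp, Dmp1, Nes, Phex, Col1a1, Dlx3, Sp7 and Wnt10a, was 9.65, 9.19, 9.85, 9.67 and 9.78 in denervated arrays 1 to 5 and 9.85, 9.88, 9.84, 9.80 and 9.85 in contralateral arrays 1 to 5. Denervated array 2 was lowest for both, and denervated arrays 1 and 4 were the next lowest for both. The markers were not all low in denervated array 2. Dmp1 (8.98), Nes, Phex, Col1a1 and Wnt10a had their lowest value there, but Dlx3 (8.31) had its highest, and Sp7 (7.17) was not low. Pearson's r was 0.97 and Spearman's rho 0.92 over 10 arrays, and r was 0.95 without the 2 arrays farthest from the median of the marker mean. This was the highest r among 40 computed between the 4 clearly measured channels and 10 marker lists, and it is a description of arrays that share mice and normalization. Of the 8 odontoblast markers 7 had a lower denervated mean, with a median difference of -0.23 against 0.02 over all genes; the mean over the list ran from 9.19 to 9.85 in the denervated and 9.80 to 9.88 in the contralateral arrays, and none of the 8 was below 2. Their part in the Kcnk2 difference was not tested. In bulk tissue a smaller share of a cell type and less RNA per cell cannot be told apart.

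**Figure D2:**
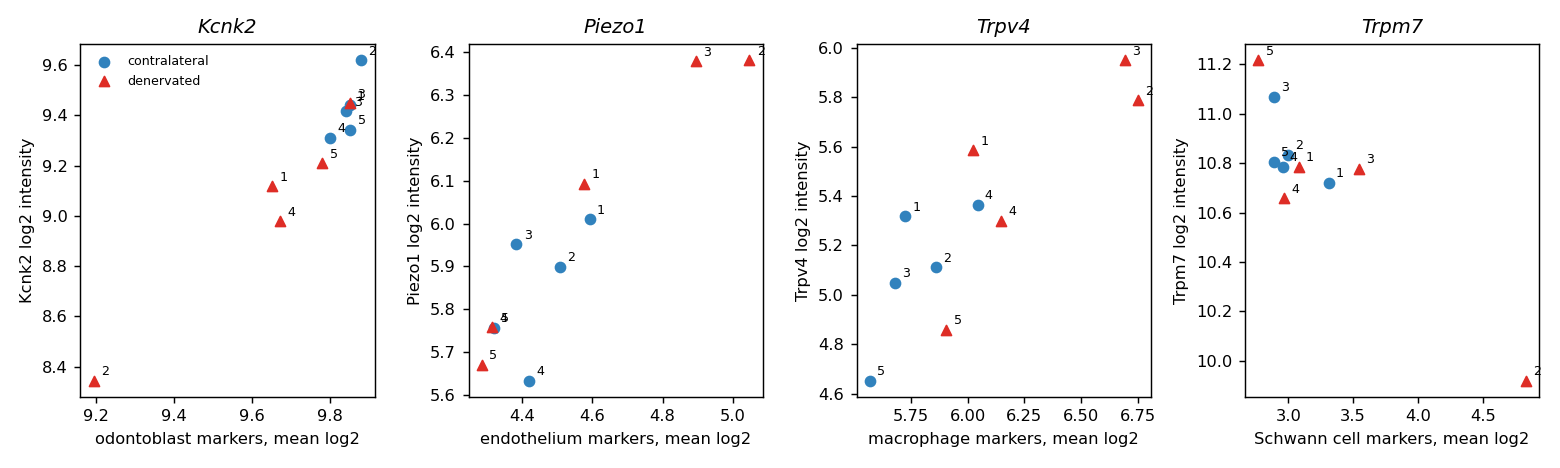
Log2 intensity of the 4 clearly measured channels (vertical) against the mean log2 value of the marker list with which each had its largest correlation in size (horizontal); points are arrays, coloured by side and labelled by number. Kcnk2 runs along the odontoblast mean, whereas in the Trpm7 panel denervated array 2, at 9.92, lies apart from the others.

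Piezo1, the tension-gated channel of vessel linings and many other cells, had 6.09, 6.38, 6.38, 5.76 and 5.67 in the denervated and 6.01, 5.90, 5.95, 5.63 and 5.76 in the contralateral arrays. Denervated arrays 2 and 3 were the highest and nearly equal, 3 of 5 denervated values exceeded every contralateral one, and the other 2 lay within the contralateral range. The means were 6.06 ± 0.33 against 5.85 ± 0.15 (SD, n = 5). The difference was 0.21 ± 0.15 (SE; 95% interval -0.12 to 0.53; limma adjusted p = 0.818), and by pair 0.08, 0.48, 0.43, 0.13 and -0.09. Without denervated arrays 2 and 3 it was -0.01, close to 0. Endothelial markers had their highest means in the same arrays, 5.05 and 4.89, and ran from 4.28 to 5.05 in the denervated and 4.32 to 4.59 in the contralateral arrays. All 7 of them had a higher denervated mean, as did 10158 of all 18193 genes, and none was below 2. With arrays shifted to a common median 4 of 7 were higher, against 4902 of all genes. With quantile normalization 5 of 7 were higher, against 9139 of all genes. Between Piezo1 and the endothelial mean, Pearson's r was 0.93 and Spearman's rho 0.83 over 10 arrays. Without the 2 arrays farthest from the median of the marker mean r was 0.78. The part of vessel content in the difference was not tested. The Schwann cell mean gave r = 0.78 and rho = 0.82 with Piezo1.

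Piezo2, the touch and position channel of sensory neurons and Merkel cells, lay near the low end. Its values were 2.53, 2.65, 2.67, 2.04 and 2.13 in the denervated and 2.44, 2.04, 2.10, 2.89 and 1.75 in the contralateral arrays, and the contralateral values of mice 4 and 5 were the highest and the lowest of all 10. The difference was 0.16 ± 0.21 (95% interval -0.29 to 0.61; limma adjusted p = 0.885), with 4 of 5 pairs higher and -0.85 in mouse 4. Without denervated arrays 2 and 3 it was -0.010. A second probe set, 1430736_at, had a mean of 1.46 and a difference of -0.05 ± 0.10, in the other direction, and the probe sets were not parallel over the arrays (r = -0.45, n = 10). The direction of this gene therefore differed between its probe sets.

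Trpv4, a channel opened by cell swelling and warmth, was measured at 5.58, 5.79, 5.95, 5.30 and 4.86 in the denervated and 5.32, 5.11, 5.05, 5.37 and 4.65 in the contralateral arrays. The highest values were again those of denervated arrays 2 and 3, and the lowest was that of contralateral array 5, whose partner was the lowest denervated one. With means of 5.50 ± 0.43 against 5.10 ± 0.28 (SD, n = 5), the difference was 0.40 ± 0.20 (95% interval -0.05 to 0.84; limma adjusted p = 0.791). The pairs differed by 0.27, 0.68, 0.90, -0.07 and 0.21, higher in 4 of 5. With the mouse as a block the interval narrowed to 0.08 to 0.72 (unadjusted p = 0.0217), but the adjusted p of limma was 0.447, the lowest of a range up to 0.989 over the alternatives. Without denervated arrays 2 and 3 the difference was 0.15. Macrophage markers were also highest in these arrays, at 6.75 and 6.69, with all 8 members higher on average and a list mean from 5.91 to 6.75 in the denervated and 5.57 to 6.04 in the contralateral arrays. For Trpv4 and the macrophage mean, Pearson's r was 0.86 and Spearman's rho 0.79 over 10 arrays, and r was 0.67 without the 2 arrays farthest from the median of the marker mean. The values were near these for the endothelial mean (r = 0.84, rho = 0.82), and rho was 0.84 for the Schwann cell mean. The part of any of these cells in the difference was not tested.

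**Figure D3:**
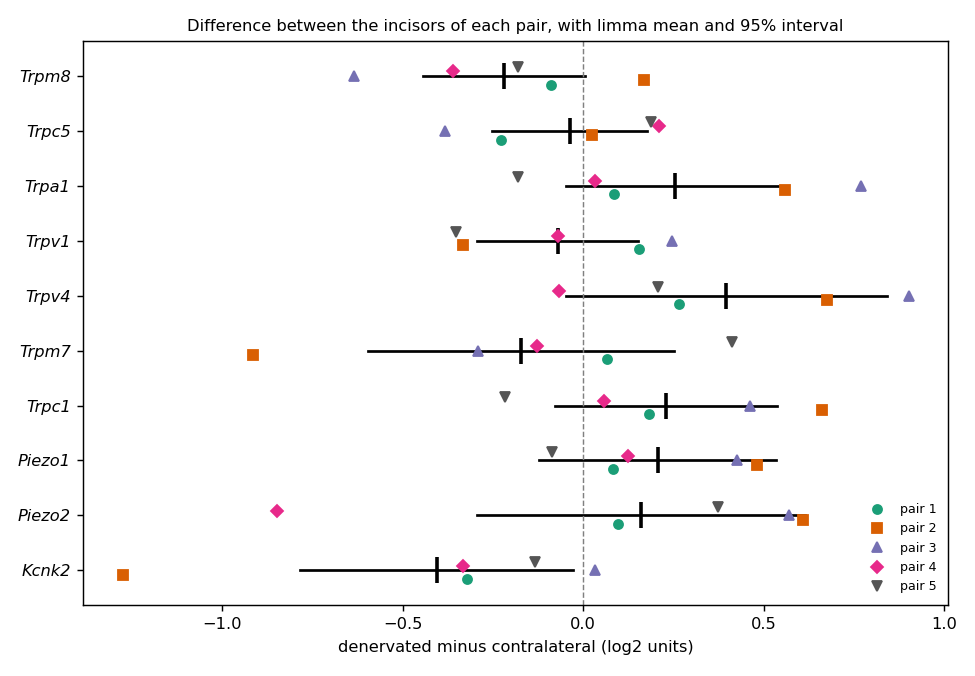
Denervated minus contralateral difference (log2 units, horizontal) of each channel gene in each of the 5 pairs (coloured symbols), with limma's mean (bar) and 95% interval (line) from the fit without a block. Pairs 2 and 3 give the 2 highest differences of Trpa1, Trpv4, Trpc1, Piezo1 and Piezo2, and pair 2 the lowest of Kcnk2 and Trpm7.

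Trpm7 encodes a channel for magnesium, calcium and zinc that carries its own kinase domain and is needed in many cell types. Its representative probe set, 1416799_at, read 10.79, 9.92, 10.78, 10.66 and 11.22 in the denervated and 10.72, 10.83, 11.07, 10.79 and 10.81 in the contralateral arrays. Both the lowest and the highest of the 10 values were denervated, from arrays 2 and 5, so the groups overlapped fully. The means were 10.67 ± 0.47 against 10.84 ± 0.13 (SD, n = 5) and the difference -0.17 ± 0.19 (95% interval -0.60 to 0.25; limma adjusted p = 0.869), or 0.016 without denervated array 2 and 0.044 without denervated arrays 2 and 3. Probe set 1416800_at read 8.08, 7.15, 8.20, 8.14 and 8.13 in the denervated and 8.45, 8.38, 8.43, 8.24 and 8.24 in the contralateral arrays. There all 5 pairs were lower, with differences of -0.36, -1.22, -0.22, -0.11 and -0.11, with a mean difference of -0.41 ± 0.18 (limma adjusted p = 0.865 over all probe sets with 1 symbol, unadjusted p = 0.0435). All 5 denervated values of this probe set lay below every contralateral one. By representative probe sets the groups did not overlap for 0.951% of genes, and all 5 pairs were lower for 3.8%. The shares over all probe sets are not given here. Denervated array 2, at 7.15, stood apart from the other denervated values, 8.08 to 8.20. Probe set 1416801_at read 7.32, 5.72, 7.26, 7.26 and 7.40 in the denervated and 7.30, 7.74, 7.56, 7.46 and 7.28 in the contralateral arrays, with denervated array 2 lower than the other 9 arrays by more than their whole range. Probe set 1431355_s_at read 6.07, 6.46, 5.92, 5.01 and 6.14 in the denervated and 5.69, 6.45, 6.21, 5.33 and 5.98 in the contralateral arrays, where denervated array 2 was the highest of the 10. It had a difference of -0.01 ± 0.27 and an r of -0.09 with the representative over the 10 arrays. The mean differences of the 4 probe sets ran from -0.47 to -0.01, and denervated array 2 was at opposite ends of them.

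**Figure D4:**
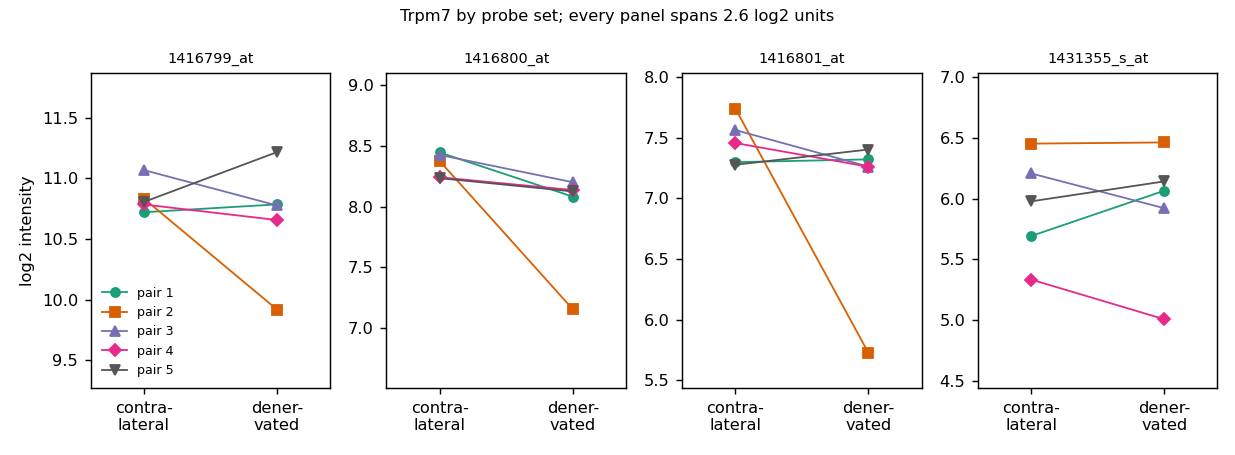
Log2 intensity of the 4 Trpm7 probe sets in the contralateral (left) and denervated (right) incisor, arrays of the same number joined; every panel has its own range of 2.6 log2 units. Denervated array 2 is the lowest in the first 3 panels (9.92, 7.15 and 5.72) and the highest in the last (6.46).

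Denervated array 2, lowest in Trpm7, was also the array highest in Schwann cell markers. Their mean was 3.08, 4.83, 3.54, 2.96 and 2.77 in denervated arrays 1 to 5 and ran from 2.88 to 3.31 in the contralateral arrays. Of the 7 measured members 6 were higher on average in the denervated incisors and 3 were below 2. With Trpm7, Pearson's r was -0.90 and Spearman's rho -0.77 over 10 arrays, and r was -0.66 without the 2 arrays farthest from the median of the marker mean. The odontoblast mean, lowest in that array as well, gave r = 0.84, or 0.14 without the 2 farthest arrays. The smooth muscle and pericyte mean, highest in that array at 7.30, gave r = -0.82, or -0.45 without the 2 farthest arrays. The endothelial mean gave r = -0.74, or -0.42 without them. The part of any of these cell types in the Trpm7 values was not tested.

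Trpc1, a subunit that joins other TRPC proteins in mixed channels, lay at the low end, with 1.69, 2.23, 2.09, 1.89 and 1.42 in the denervated and 1.51, 1.57, 1.63, 1.83 and 1.64 in the contralateral arrays. The difference was 0.23 ± 0.14 (95% interval -0.08 to 0.54; limma adjusted p = 0.804), with 4 of 5 pairs higher. Denervated arrays 2 and 3 were the highest, and without them it was 0.03. The other probe set, 1421095_a_at, had a mean of 0.57 and differed by 0.01 ± 0.09.

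The channels that detect cold, heat and irritants lay at the low end, and no detection call separates a value there from background. Trpm8, the menthol and cool receptor, had 1.09, 1.05, 0.65, 0.85 and 0.95 in the denervated and 1.18, 0.88, 1.28, 1.21 and 1.13 in the contralateral arrays. Denervated arrays 3 and 4 were the lowest and 2 of 5 denervated values lay below every contralateral one, while pair 2 went the other way. The difference was -0.22 ± 0.10 (95% interval -0.44 to 0.01; limma adjusted p = 0.790, unadjusted p = 0.0554). Trpc5, which forms a cold-sensitive channel described in mouse odontoblasts, had 0.53, 0.76, 0.66, 0.89 and 0.76 against 0.75, 0.74, 1.04, 0.68 and 0.58. Its highest value was contralateral and its lowest denervated, with the groups overlapping, and the difference was -0.04 ± 0.10 (95% interval -0.25 to 0.18; limma adjusted p = 0.948).

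Trpa1, the receptor for mustard oil and other reactive irritants, had 1.93, 2.27, 2.52, 1.94 and 1.70 in the denervated and 1.85, 1.71, 1.75, 1.91 and 1.88 in the contralateral arrays. The contralateral values were close together, 4 of 5 denervated values lay above all of them, arrays 1 and 4 narrowly and arrays 2 and 3 by more, and denervated array 5 was the lowest of the 10. The difference of 0.25 ± 0.14 (95% interval -0.05 to 0.55; limma adjusted p = 0.791) became 0.04 without denervated arrays 2 and 3. Trpv1, the capsaicin and heat receptor of pain fibres, had 0.69, 0.35, 0.84, 0.46 and 0.42 against 0.53, 0.68, 0.59, 0.53 and 0.77, with both extremes in the denervated group. Its difference was -0.07 ± 0.10 (95% interval -0.29 to 0.15; limma adjusted p = 0.897), or -0.10 without denervated arrays 2 and 3. The intervals of these 4 genes apply to the compressed low end of the scale and do not bound the change of the transcript. Trpv1 and Trpa1 are carried mainly by sensory neurons. Of 11 measured sensory axon markers 5 had a higher and 6 a lower denervated mean, and the list mean ran from 2.22 to 2.64 in the denervated and 2.16 to 2.77 in the contralateral arrays. Tac1 and Tubb3 were clearly measured and differed by 0.30 ± 0.46 and -0.31 ± 0.28 (SE). Gap43 differed by 0.39 ± 0.30 (SE), the highest difference of the 11. Below 2 lay 7 of 11, among them Prph, which encodes peripherin, at 1.87 ± 0.14 against 2.09 ± 0.20 (SD, n = 5). Its difference was -0.22, or -0.13 without denervated arrays 2 and 3. Scn10a, the sodium channel gene of pain fibres, was also below 2, at 0.86 ± 0.08 against 1.01 ± 0.12 (SD, n = 5).

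The denervated values were more spread than the contralateral ones in 8 of the 10 channel genes, against 57.4% of all genes. The SD was at least 2 times larger in 6 of 10, Trpa1, Trpm7, Kcnk2, Trpc1, Piezo1 and Trpv1, against 17% of all genes. For Trpa1 the SDs were 0.32 and 0.08, for Trpm7 0.47 and 0.13, and for Kcnk2 0.41 and 0.12. Without both arrays of number 2 the counts were 8 of 10 and 4 of 10, against 51.6% and 16.5% of all genes. The 4 were then Trpa1, Kcnk2, Trpc1 and Trpm8. Trpm7, with SDs of 0.25 and 0.15, Piezo1 and Trpv1 were no longer among them. Without both arrays of numbers 2 and 3 the counts were 8 of 10 and 4 of 10, against 44% and 15.8% of all genes. Piezo2 and Trpc5 had the larger SD in the contralateral arrays. These counts are descriptions, since the genes share the same 10 arrays.

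Genes whose pattern was most like each clearly measured channel were looked for among 7918 other clearly measured genes, by Pearson's r over the 10 arrays (in brackets). For Kcnk2 these were Parm1 (0.98), Rell1 (0.98), Uck2 (0.97). Trpv4 was closest to Prpsap2 (0.98), Tbc1d2b (0.97), Mrpl3 (0.96), Piezo1 to Fam234a (0.97), Cdk9 (0.96), Trim25 (0.96), and Trpm7 to Sema3e (0.95), Dner (0.95), Tapt1 (0.94). For the 3 genes closest to Trpm7 Spearman's rho was between 0.68 and 0.77, and 0.87 or above for those of the other channels. The 10 arrays come from 5 mice, and the search over so many genes picks high values of r, so these names are a description only.

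Related genes of the same families and of the steps around them were read from the same fit, and 0 of them passed the adjusted p of 0.05 (0% of all genes), with or without the block. Of the other TRP channels 17 of 21 were measured and only Mcoln1 clearly, a lysosomal channel. Shifting the arrays to a common median moved the median difference of all genes from 0.02 to -0.08, and counts of higher and lower genes near 0 move with it. This was not the median over all probe sets, whose range over the arrays is smaller than that move. The shift left 4902 of 18193 genes with a higher and 13291 with a lower denervated mean. As deposited, 10158 of 18193 genes had a higher and 8035 a lower denervated mean, against which the counts of each list can be read. Of the other TRP channels lower means were found for 11 of 17, with a median difference of -0.06 against 0.02 over all genes. The smallest unadjusted p values were those of Trpm1 (0.38 ± 0.12), Trpm5 (-0.23 ± 0.11) and Pkd2l2 (-0.17 ± 0.08). With the mean of all probe sets of each gene these differences were 0.16, -0.097 and -0.021. Trpm4 (-0.22 ± 0.14), Trpv2 (0.06 ± 0.14) and Trpc6 (-0.07 ± 0.09) completed the named ones, all with means below 4; without denervated arrays 2 and 3 the difference of Trpc6 was 0.00078. Trpm1, a channel of retinal and pigment cells, was higher in 4 of 5 pairs. Trpm5, at the low end, was lower in 5 of 5, as were 3.8% of all genes.

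Of 11 other tandem-pore potassium channel genes 8 had a higher mean, with a median of 0.04. With arrays shifted to a common median 1 of 11 did so, where 4902 of all 18193 genes did. Kcnk4 and Kcnk10, which encode the related stretch-opened channels TRAAK and TREK-2, were at the low end, with differences of -0.04 ± 0.09 and 0.08 ± 0.08, and so was Kcnk15 (-0.20 ± 0.10). Kcnk4 differed by -0.060 without denervated arrays 2 and 3. Kcnk1 was high, at 7.87 ± 1.32 against 8.53 ± 0.14 (SD, n = 5), and its difference of -0.67 ± 0.50 was -0.08 without denervated array 3 and -0.020 without denervated arrays 2 and 3. In denervated array 3, the one with the low mean of epithelial markers, Kcnk1 read 5.53 where the other denervated arrays lay between 8.26 and 8.67. Kcnk2 read 9.45 there, within its contralateral range.

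Among 25 other mechanically gated channels and their partners 16 had a lower mean (median -0.03). Mdfi (0.24 ± 0.11), an inhibitor of myogenic factors whose protein also binds PIEZO channels, was clearly measured and higher in 4 of 5 pairs. Stoml1 (0.40 ± 0.20) and Tmem63c (-0.15 ± 0.09) followed by p. Without denervated arrays 2 and 3 the difference of Mdfi was 0.12 and that of Stoml1 0.11. Tmem63b, a stretch-gated cation channel gene, differed by 0.06 ± 0.10. The acid-sensing channel gene Asic3 was at the low end (0.04 ± 0.12; -0.061 without those arrays).

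Odontoblasts are held to pass a mechanical signal to the nerve by releasing ATP, which opens P2X receptors on its endings. Of 25 genes of ATP release and purine receptors 14 had a lower mean (median -0.07). Of the release channels and junction genes Gja1 was at 11.72 ± 0.23 against 11.71 ± 0.12, Panx3 was at 6.04 ± 0.48 against 5.87 ± 0.36 and Panx1 was at 4.07 ± 0.44 against 4.17 ± 0.17 (SD, n = 5). P2rx3, the receptor of sensory endings, was at the low end (-0.11 ± 0.07), and P2rx4 differed by 0.01 ± 0.11. Without denervated arrays 2 and 3 the differences of Gja1, Panx3, Panx1 and P2rx4, 0.0089, 0.17, -0.11 and 0.0086 over all arrays, were 0.16, 0.30, 0.14 and -0.081. P2ry6, a receptor for uridine nucleotides, was higher in 5 of 5 pairs, as were 6.58% of all genes. It was at 4.67 ± 0.36 against 4.22 ± 0.14 with a difference of 0.45 ± 0.16, or 0.22 without denervated arrays 2 and 3. P2rx7, a receptor of immune cells, differed by 0.52 ± 0.17 at the low end, or 0.36 without them. Both had their largest paired differences in mice 2 and 3, whose denervated arrays were also highest in macrophage markers, and the part of those cells was not tested. Nt5e, which encodes the enzyme that makes adenosine from AMP, differed by -0.53 ± 0.19, with -1.37 in mouse 2.

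Sodium channels that carry the nerve impulse had 9 of 11 genes with a lower mean (median -0.06), and Scn2b alone, a beta subunit gene, was clearly measured. Scn10a was lower in 5 of 5 pairs (-0.16 ± 0.08), as were 3.8% of all genes. Scn4b was higher in 5 of 5 (0.12 ± 0.08), as were 6.58% of all genes, and both lay at the low end. Scn9a differed by -0.11 ± 0.20, and Scn7a by 0.55 ± 0.41 with 2.58 in mouse 2. With denervated arrays 2 and 3 left out, Scn9a differed by 0.16 and Scn7a by -0.15. Of 20 genes for calcium stores, entry and extrusion 13 had a lower mean (median -0.04). The extrusion genes Slc8a3, a sodium-calcium exchanger, and Atp2b1, a plasma membrane calcium pump, differed by -0.66 ± 0.22 and -0.40 ± 0.19. In mouse 2 they differed by -1.44 and -1.25, the same mouse in which Kcnk2 differed by -1.28, Dmp1 by -2.55 and Nes by -0.89. Slc8a3 was lower in 4 of 5 pairs and Atp2b1 in 5 of 5, as were 3.8% of all genes. The 5 denervated values of Atp2b1 lay below every contralateral one. The groups did not overlap for 0.951% of all genes. Leaving out denervated arrays 2 and 3, Slc8a3 differed by -0.72, Atp2b1 by -0.20, Dmp1 by -0.023 and Nes by -0.32. The store-operated entry genes Stim1, Orai3 and Orai1 differed by 0.13 ± 0.08, 0.24 ± 0.10 and -0.10 ± 0.15. The first 2 were higher in 5 of 5 pairs, as were 6.58% of all genes. Without denervated arrays 2 and 3 Orai3 differed by 0.15. Dspp, the main dentin phosphoprotein gene, differed by -0.18 ± 0.08, and Dmp1 and Nes by -0.48 ± 0.43 and -0.35 ± 0.15 over all mice. Without denervated array 2 alone Dmp1 differed by -0.018, Nes by -0.23 and Atp2b1 by -0.19.

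**Figure D5:**
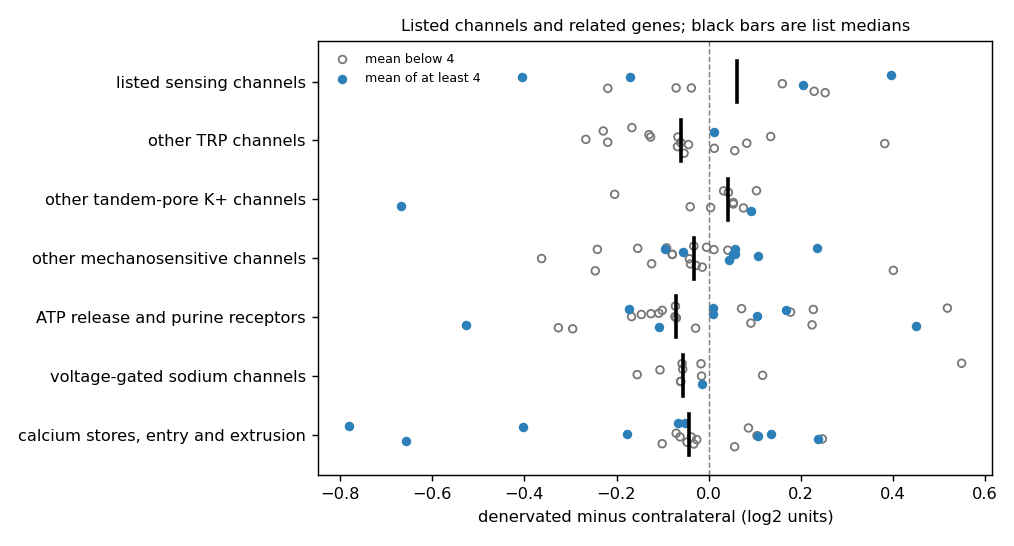
Denervated minus contralateral difference (log2 units, horizontal) of each listed channel and of the genes in 6 related lists; filled points have a mean log2 intensity of at least 4, open points a lower one, and black bars are medians. The list medians lie between -0.07 and 0.06, and the vertical position within a list has no meaning.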

How the data were processed

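Total RNA of 10 incisor samples was measured on oligonucleotide expression arrays. Per probe set the authors deposited log2 intensities, made with RMA per the submitters' processing notes, with no version given; the log2 scale was read from the values, and any further step is not given in the sources used here. Values near the low end are compressed. After 64 control probe sets, those naming 1 gene symbol (34945) were kept, 1 per gene by highest mean. Denervated and contralateral arrays were compared in R 4.3.3 by limma 3.58.1, fitting with lmFit and then eBayes, with Benjamini-Hochberg adjustment over 18193 genes; errors are SDs or limma's standard errors. Unless the block is named, limma's fit did not use the pairing, so its errors and p-values treat the incisors of a mouse as independent. With the block the standard error was 0.099 for Piezo1 (0.15 without), 0.14 for Trpv4 (0.20 without) and 0.17 for Kcnk2 (0.17 without). The p-values measure the spread between incisors, and the number of arrays limits precision.

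Equal sample numbers were checked for pairing: the correlation of deviations from group means was 0.18 to 0.57 for the 5 equal numbers, against -0.41 to 0.22 for 20 unequal ones, and per the series' design text each of 5 mice gave its 2 lower incisors. The labels do not state that a number marks a mouse.

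The channels and gene lists were chosen with earlier results of these data known. Named beside the channels are the 3 genes of smallest p in each related list, a fixed set, and the 3 most alike genes of each channel with a mean of at least 4; some genes of the lists are not reported here. Alternatives were the block, 2 scalings, a floor of 2, array weights, limma's trend and robust options, filters at 2 and 4, other probe sets and leaving out arrays; the spread without arrays of number 2, or 2 and 3, was added after seeing the data. The fit was tested on simulated normal values with independent arrays, without pairs and without arrays that stand apart. That test therefore does not show how the fit behaves with these features.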

Additional observations from a re-analysis of the deposited data

Results flagged for a closer look

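In each group of 5 arrays the highest and the lowest value were compared with the rest, for the channel genes, their other probe sets, the named genes and the marker lists. A gap of over 0.71 of the group's range to the nearest array was found in 11 of 146 groups; chance alone gives about 1 in 20, and arrays of several genes are not independent.

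Denervated array 2 was low in 2 Trpm7 probe sets, 1416800_at at 7.15 (others 8.08 to 8.20) and 1416801_at at 5.72 (others 7.26 to 7.40). It was also low in Atp2b1, at 8.82 (others 9.83 to 9.91), and in Dner, 1 of the genes most like Trpm7, at 5.58 (others 7.21 to 7.63). Denervated array 3 was low in Kcnk1, at 5.53 (others 8.26 to 8.67), in the mean of the epithelial markers, at 6.36 (others 8.92 to 9.21), and in that of the skeletal muscle markers, at 1.13 (others 1.32 to 1.35), the last at the low end. Stim1 was low in denervated array 5, at 6.11 (others 6.30 to 6.36). Contralateral arrays stood apart upward in 3 cases. These were Sema3e in array 3 at 8.56 (others 8.23 to 8.30), Uck2 in array 2 at 9.98 (others 9.21 to 9.38), and the Schwann cell marker mean in array 1 at 3.31 (others 2.88 to 2.99). None of the representative probe sets of the 10 channel genes had such a gap.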

How the results depend on the processing

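Under all 20 alternatives limma called 0 of 18193 genes (or of those left by a filter) and 0 of the channel genes after adjustment; the replicate block gave 0 as well, with a smallest adjusted p of 0.447 among the channels, and changed no call. The smallest adjusted p of any gene lay between 0.234, with the block, and 0.989. Trpm8, Trpa1, Trpv1, Trpv4, Trpc1 and Kcnk2 kept the sign of their difference under every alternative run for them, with Kcnk2 between -0.51 and -0.24 and Trpv4 between 0.15 and 0.56. With values below 2 raised to 2, Trpm8, Trpc5 and Trpv1 had no spread left and could not be fitted. Signs turned as follows, the values being the difference under the alternative. Without the denervated arrays of mice 2 and 3 it was for Trpm7 0.044, Piezo1 -0.010, Piezo2 -0.010, Scn7a -0.15, Trpc6 0.00078, Asic3 -0.061, Panx1 0.14, P2rx4 -0.081 and Scn9a 0.16. With arrays shifted to a common median it was for Kcnk10 -0.023, Trpv2 -0.042, Asic3 -0.056, Tmem63b -0.041, Gja1 -0.090 and P2rx4 -0.090, and with quantile normalization for Tmem63b -0.016 and P2rx4 -0.046. Array weights gave for Trpc6 0.0047, Asic3 -0.010, Panx1 0.037, P2rx4 -0.080 and Scn9a 0.036, a floor of 2 for Trpv2 -0.058 and Scn9a 0.0042, the mean of all probe sets for Panx3 -0.010, Gja1 -0.046, P2rx3 0.0063 and Orai1 0.24, and probe set 1430736_at for Piezo2 -0.050. Leaving out 1 array gave ranges through 0 for Trpc5 -0.083 to 0.033, Trpm7 -0.31 to 0.016, Kcnk4 -0.087 to 0.030, Trpv2 -0.054 to 0.13, Asic3 -0.058 to 0.084, Tmem63b -0.0084 to 0.10, Panx1 -0.20 to 0.071, Gja1 -0.065 to 0.082, P2rx4 -0.066 to 0.090, Scn9a -0.24 to 0.061 and Orai1 -0.20 to 0.0025; Trpm7 was above 0 only without denervated array 2, and Trpc5 without denervated array 1 or contralateral array 3. Other differences kept their sign but were smaller in size. Among them, the mean of all probe sets gave for Slc8a3 -0.36, Nt5e -0.22 and P2rx7 0.29. A floor of 2 gave for P2rx7 0.077 and Trpm5 -0.078. The causes were not tested. Of the channels 6 lie near or at the low end of the scale, where the arrays limit what can be seen.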

Other observations

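Covariation among the 4 clearly measured channels was described over the 10 arrays, for 6 pairs of genes, also without the 2 arrays farthest from the median of the first gene. Trpv4 and Piezo1 varied in parallel (r = 0.79, rho = 0.67, and r = 0.71 without those 2 arrays). Trpv4 and Trpm7 ran oppositely (r = -0.58, rho = -0.68, and r = -0.87 without those 2 arrays). For Trpm7 and Kcnk2, both lowest in denervated array 2, the relation was weaker by rank and without 2 arrays (r = 0.77, rho = 0.37, and r = 0.44 without those 2 arrays). For Trpm7 and Piezo1 the values were r = -0.59, rho = -0.48, and r = 0.07 without those 2 arrays. Their paired differences in mice 1 to 5 were 0.06, -0.91, -0.29, -0.13 and 0.41 for Trpm7 and 0.08, 0.48, 0.43, 0.13 and -0.09 for Piezo1, with the order of the 5 mice reversed. The other 2 pairs had r = -0.38 for Trpv4 and Kcnk2 and r = -0.35 for Piezo1 and Kcnk2. The arrays share mice and normalization, and these values are descriptions.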
